A study of Mus musculus with 12 samples.

Results

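The DNA mismatch repair family examined here consists of 7 genes, the MutS homologs *Msh3*, *Msh4*, *Msh5* and *Msh6* and the MutL homologs *Mlh3*, *Pms1* and *Pms2*, out of 55401 genes in the deposited count table. They were found by gene symbol, and each had 1 entry in the table. The family was chosen by a measured value, since *Pms2* was the gene with the smallest p for dorsomorphin (DM) in primordial follicles, so the values of that comparison are given as a description and without a test.

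MutS proteins work as pairs that recognise mispaired or looped-out bases behind the replication fork, and MutL proteins are recruited to them and cut the strand to be corrected. MSH6 belongs to the pair that reads base mismatches and short loops, and MSH3 to the pair that reads longer loops. MSH4 and MSH5 form a pair that takes no part in mismatch repair and stabilises recombination intermediates in meiosis, where MLH3 acts later to turn these into crossovers.

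The RNA was sequenced from oocytes of primordial and of primary follicles, cut by laser capture microdissection from fixed and stained ovary sections on the basis of their morphology. The ovaries came from juvenile F1 hybrid females (C57Bl/6j x CBA/J), 7 to 8 days old, and spent 5 days in culture with either DMSO, the control, or DM, an inhibitor of the energy sensor AMPK. The sample labels call the material in vivo and the control a sham treatment, whereas the methods describe cultured ovaries, and the dose of DM in these libraries was not given separately. Each of the 4 groups, primordial control, primordial DM, primary control and primary DM, had 3 libraries of pooled and amplified oocyte RNA. The paper calls the 3 samples of a group biologically independent, but nothing in the sources ties a library to 1 animal.

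Total counts ranged from 14034586 to 42639326 per library, and a library without a count of a gene may still hold up to 3 counts of it, which is 0.0704 to 0.214 CPM (counts scaled to a library's total) and covers counting error only. The number of genes with at least 10 counts ranged from 2913 to 9333 of the 17728 genes with any count, and was lowest in replicate 3 of primary control. Summed oocyte markers ranged from 6.84 to 1425 CPM across the 12 libraries, and the oocyte marker *Ddx4* from 11 to 47451 counts, while summed stromal markers were at 2389 CPM or more in every library. The labelled cell type was therefore only weakly represented by its markers in some libraries. The oocyte markers *Kit* and *Zp1* ranged from 8 to 17965 and from 1 to 5772 counts. Summed granulosa markers ranged from 12.7 to 11210.5 CPM, with *Foxl2* at 61 to 474295, *Wt1* at 28 to 134153 and *Nr5a2* at 3 to 13516 counts, and of the 9 markers of these cells *Fshr* and *Cyp19a1* were at 0 in all libraries. The collagen genes of stroma were present in all 12 libraries, *Col1a1* at 191 CPM or more, *Col1a2* at 164 or more and *Col3a1* at 61.6 or more. Of the immune and endothelial markers *Cdh5* reached 1055, *Cd68* 41 and *Pecam1* 30 counts in a library. The part of these other cell types in the results below was not tested. Summed oocyte, granulosa and stromal markers overlapped between the groups of every comparison below, and summed immune and endothelial markers did so in all but the control libraries of the 2 stages, at up to 0.211 CPM in primordial and at least 0.356 CPM in primary follicles. The sums can hide single markers. For DM in primordial follicles, 3 of 9 oocyte and 2 of 5 granulosa markers that passed the filter on low counts had groups that did not overlap. All were lower in DM, *Foxl2* at 97, 656 and 61 counts against 40701, 39034 and 4197 in control. For DM in primary follicles it was 2 of 7 and 1 of 6, again all lower. Over all genes tested the share was 13.0% at each stage. No stromal marker was separated in either of these comparisons. In such pooled samples, fewer cells of a type and less RNA per cell cannot be told apart.

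The sequence that matters most for reading these data lies within *Pms2* (chr5:143909964-143933968, GRCm38, plus strand). A further annotated gene, *Gm42421*, lies on the same strand and shares 394 exon bases with *Pms2* in 3 segments, at chr5:143928175-143928297, chr5:143928942-143929042 and chr5:143929181-143929350. The last 2 segments lie wholly within the coding sequence of *Pms2*, and none of the shared bases is in a UTR. They are shown because a read from either of them fits both genes.
Pms2 and Gm42421, chr5:143928942-143929042, plus strand: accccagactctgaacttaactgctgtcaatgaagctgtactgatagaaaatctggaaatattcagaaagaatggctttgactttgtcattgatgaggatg
Pms2 and Gm42421, chr5:143929181-143929350, plus strand: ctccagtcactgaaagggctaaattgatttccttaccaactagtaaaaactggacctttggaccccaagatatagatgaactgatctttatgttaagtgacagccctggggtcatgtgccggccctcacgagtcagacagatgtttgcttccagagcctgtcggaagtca

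Among the MutS homologs of repair, *Msh6* (ENSMUSG00000005370.4, chr17:87975062-87990892, plus strand) reached at least 10 counts in 8 of 12 libraries, against 4 for *Msh3*. Primordial controls held 222, 2 and 13 counts, against 2452, 301 and 1635 with DM. Primary controls held 539, 43 and 164 counts, against 1, 4 and 0 with DM. Every primordial DM library was thus above every primordial control library, and every primary DM library was below every primary control library. Over all genes tested, 13.0% had groups that did not overlap at each stage. In primary follicles *Msh6* passed the filter on low counts through its control libraries alone, so its separation there followed from that. As group means, *Msh6* was at 2.26 ± 3.15 CPM in primordial control and 50.1 ± 36.6 CPM in primordial DM (SD, n = 3 each). In primary follicles the means were 8.05 ± 6.82 CPM in control and 0.0434 ± 0.0473 CPM in DM (SD, n = 3 each).

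*Msh3* (ENSMUSG00000014850.15, chr13:92211872-92355003, minus strand), the partner that reads longer loops, was present in 1 library of each group and near the floor in the rest. The counts were 792, 7 and 1 in primordial control and 1, 515 and 0 in primordial DM. Primary controls held 428, 5 and 0 counts, against 1208, 2 and 0 with DM. At least 10 counts were reached in 4 of 12 libraries, and 6 had 3 counts or fewer. The group means ran from 4.31 ± 7.15 CPM in primary control to 14.7 ± 25.3 CPM in primary DM (SD, n = 3 each), so that the SD exceeded the mean in both.

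The meiotic pair was sparse. *Msh4* (ENSMUSG00000005493.15, chr3:153857149-153906138, minus strand) had 256, 1728 and 2 counts in primordial control and 1, 0 and 0 in primordial DM. Primary controls held 0, 12 and 1 counts, and each primary DM library held 1. Only 3 of 12 libraries held at least 10 counts, and all of these were controls. Over all genes, 9333, 5952 and 5432 reached 10 counts in primordial control and 6229, 5971 and 3939 in primordial DM. In primary follicles it was 6408, 6059 and 2913 genes in control and 3890, 3263 and 3603 in DM. The share of all genes counted in controls alone was not determined. *Msh5* (ENSMUSG00000007035.15, chr17:35028605-35046745, minus strand) had 303 counts in replicate 1 of primordial control and 1 count in replicate 3 of primordial DM. It was at 0 in the other 10 libraries, those of primary follicles included.

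Of the MutL homologs, *Mlh3* (ENSMUSG00000021245.15, chr12:85234520-85270599, minus strand), the endonuclease subunit of meiotic crossing over, was found in control libraries. It had 12, 18 and 273 counts in primordial control and 4, 1 and 0 in primordial DM. Primary controls held 0, 2 and 4329 counts, and all 3 primary DM libraries were at 0. The 4 libraries with at least 10 counts were therefore the primordial controls and 1 primary control. The level in primary control, 46.4 ± 80.3 CPM (SD, n = 3), rested on that 1 library. As for *Msh4*, the share of all genes counted in controls alone was not determined.

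*Pms1* (ENSMUSG00000026098.13, chr1:53189187-53297018, minus strand), whose product has a minor part in repair, did not exceed 9 counts in any library. It had 1, 9 and 3 counts in primordial control, 0, 2 and 0 in primordial DM, 5, 0 and 5 in primary control and 0 in all primary DM libraries. No library reached 10 counts, and the gene passed the filter on low counts in none of the comparisons.

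*Pms2* (ENSMUSG00000079109.11), the endonuclease subunit of the main MutL repair complex, was counted in all 12 libraries and reached 10 counts in 11 of them. It had 169, 18 and 8 counts in primordial control and 18, 144569 and 11 in primordial DM. Primary controls held 1080, 306 and 16 counts, against 5659, 22 and 13 with DM. A single library of primordial DM was thus at 4144 CPM while the other two were at 0.471 and 0.523 CPM, the first just below and the second within the range of the controls, 0.485 to 4.47 CPM. The group means were 1.83 ± 2.29 CPM in primordial control and 1382 ± 2392 CPM in primordial DM (SD, n = 3 each). In primary follicles they were 18.0 ± 15.9 CPM in control and 68.9 ± 119 CPM in DM (SD, n = 3 each).

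**Figure D1:**
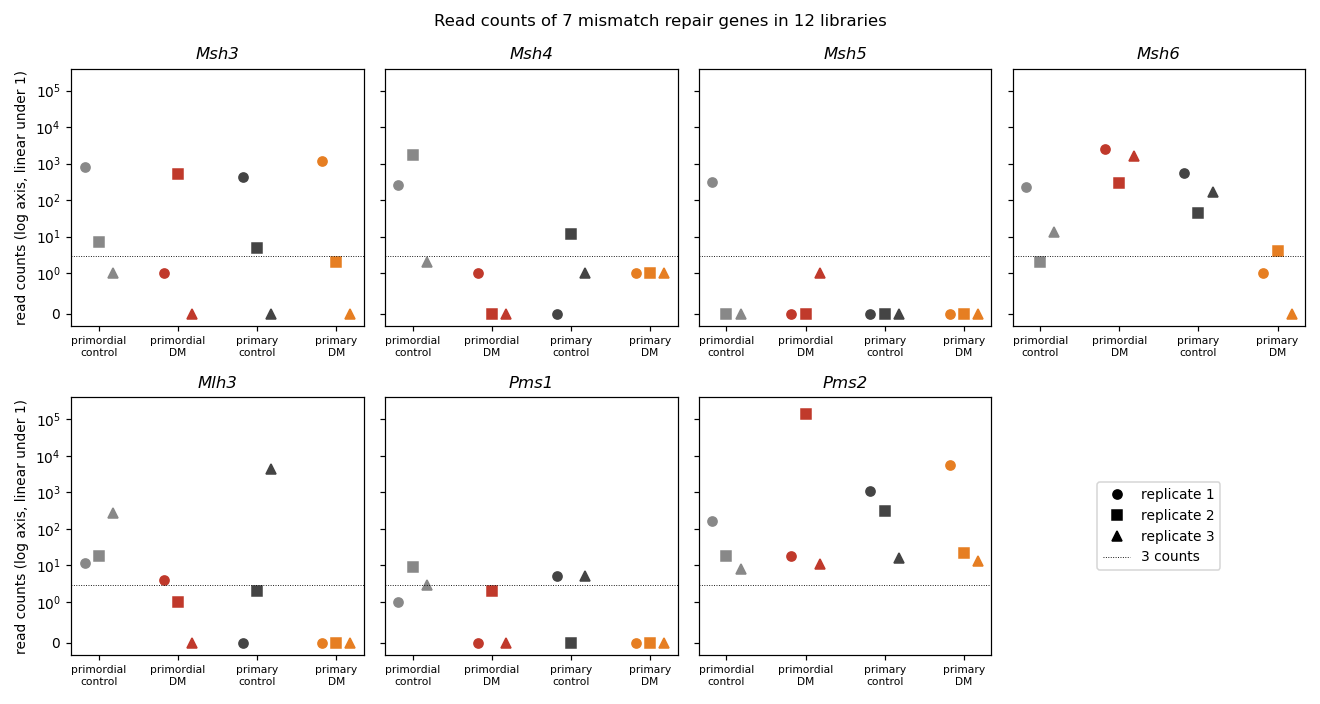
Read counts of the 7 genes in each of the 12 libraries, with 1 panel a gene, the 4 groups on the x axis, counts on a log y axis that is linear under 1, and a dotted line at 3 counts. Circles, squares and triangles mark replicates 1, 2 and 3. *Msh6* is above all controls in primordial DM and below all controls in primary DM. Groups did not overlap for 13.0% of the genes tested at each stage. *Pms2* reaches 144569 counts in a single library.

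The counts of *Pms2* were set beside those of *Gm42421*, the gene that shares the exons printed above. *Gm42421* had 149, 1 and 0 counts in primordial control, 0 in all primordial DM libraries, 1065, 2 and 0 in primary control and 5639, 2 and 2 in primary DM. In replicate 1 of primordial control, of primary control and of primary DM, the counts of the pair differed by 20, 15 and 20. In the library with 144569 counts of *Pms2*, *Gm42421* was at 0. After subtraction of the *Gm42421* counts, *Pms2* was left with 20, 17 and 8 counts in primordial control and 18, 144569 and 11 in primordial DM. In primary follicles 15, 304 and 16 counts were left in control and 20, 20 and 11 in DM. *Pms2* was then between 8 and 20 counts in 10 of the 12 libraries, and above that in 1 library of primordial DM and 1 of primary control. The sources used here do not give the settings for strand and for reads that fit several genes, so the counts in the shared exons cannot be assigned to either gene. *Rsph10b*, which shares 85 exon bases with *Pms2* on the same strand, had 6 counts in 1 primary control library and 0 elsewhere.

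**Figure D2:**
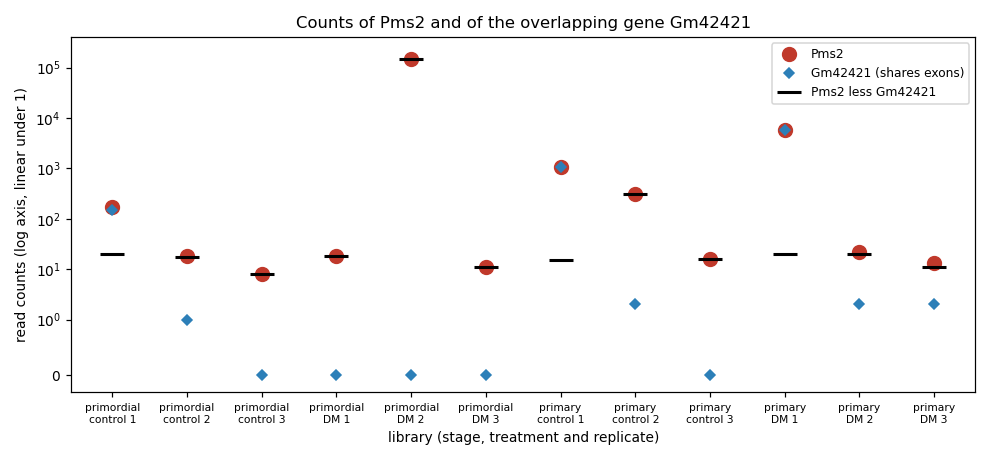
Read counts of *Pms2* (circles), of the overlapping gene *Gm42421* (diamonds) and of *Pms2* less *Gm42421* (bars) in each of the 12 libraries, on a log y axis that is linear under 1. The circles and diamonds nearly coincide in replicate 1 of primordial control, primary control and primary DM, and the bar stays at 144569 in replicate 2 of primordial DM, where *Gm42421* is at 0.

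Other genes lie close to the members on the opposite strand. *Aimp2*, a scaffold protein of the tRNA synthetase complex, starts 117 bases from *Pms2* and is read away from it, and the stretch between them, shown because it lies between both starts, is printed here from the RefSeq promoter table (GRCm38.p6), with CCAAT and GGGCGG on either strand in capitals.
Pms2, chr5:143909848-143909963, plus strand: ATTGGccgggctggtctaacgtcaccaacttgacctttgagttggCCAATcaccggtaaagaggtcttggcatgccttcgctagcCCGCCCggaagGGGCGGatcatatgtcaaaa
All 7 members were matched to a promoter in that table. Within the full windows of that table, which are all of the same length, CCAAT was found in 5 members and in 37.4% of 32851 promoters, and GGGCGG in 5 members and in 35.7%. *Aimp2* had 91, 0 and 150 counts in primordial control, 2249, 2 and 0 in primordial DM, 237, 15 and 0 in primary control and 1, 0 and 14 in primary DM. Its highest library was therefore another one than that of *Pms2*. *Fbxo11*, an F-box protein that shares 34 exon bases with *Msh6*, ranged from 60 to 147442 counts, and was at 82, 100072 and 70 counts in the primary DM libraries, in which *Msh6* had at most 4. *Ormdl1*, a regulator of sphingolipid synthesis that starts 77 bases from *Pms1*, had 5431 counts in 1 primordial DM library in which *Pms1* was at 0. *Gm24395* and *Gm28777*, which share exon bases with *Msh4* and *Pms1*, were at 0 in all libraries. With no strand setting stated, reads in exons shared across strands cannot be told apart.

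*Msh6* had the highest median level of the family once levels were scaled to exon length. The median level over the 12 libraries was 0.959 CPM per kb for *Msh6*, 0.0648 for *Pms2*, 0.0113 for *Msh3*, 0.00882 for *Mlh3*, 0.00440 for *Msh4* and 0.00175 for *Pms1*, and 0 for *Msh5*. By the mean, *Pms2* came first at 45.3 CPM per kb and *Msh6* next at 3.48. The ranges of all neighbours in this order overlapped.

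The members were mostly carried by different single libraries. *Pms2* had 93.9% of its summed CPM in replicate 2 of primordial DM, 20.1 times the next library. That next library was replicate 1 of primary DM, where most *Pms2* counts were matched by *Gm42421*. *Mlh3* had 87.9% in replicate 3 of primary control and *Msh4* 85.5% in replicate 2 of primordial control. *Msh3* had 47.3% in replicate 1 of primary DM, and *Msh6* 42.8% in replicate 3 of primordial DM, only 1.21 times the next library. These 5 members had at least 10 counts in at least 3 libraries, and *Msh5* and *Pms1* did not. Over the 8288 genes that met the same condition the median was 52.1%, and 639 (7.71%) were above 90%. The share of *Pms2* is no finding, since its choice already named a single library. The gene that led the family changed accordingly between libraries of the same group, from *Msh3* to *Msh4* to *Mlh3* in primordial control and from *Msh6* to *Pms2* to *Msh6* in primordial DM. In primary DM *Pms2* led in all 3 libraries, with family sums of 250, 0.680 and 0.399 CPM. In the first of these, however, 5639 of its 5659 counts were matched by *Gm42421*, and without them *Msh3*, with 1208 counts, would lead.

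**Figure D3:**
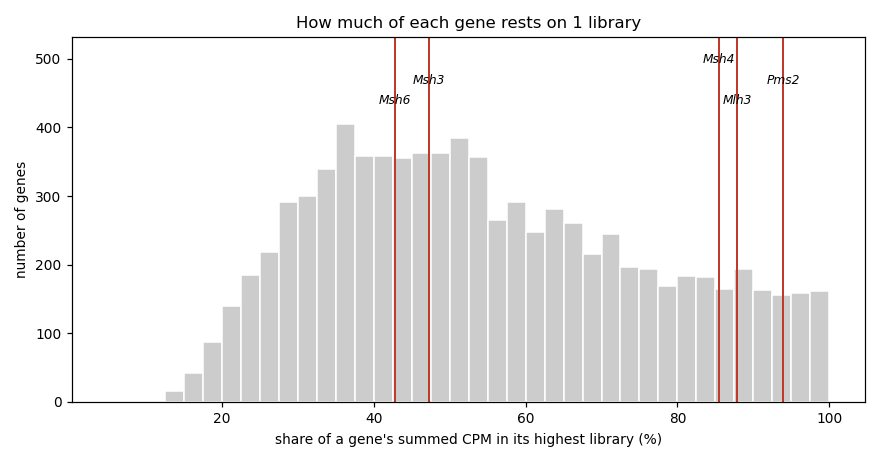
Histogram of the share of a gene's summed CPM that lies in its highest library (x axis, percent) for 8288 genes (y axis, number of genes), with red lines for the 5 members that met the same filter. *Msh6* and *Msh3* lie below the median of 52.1%, and *Msh4*, *Mlh3* and *Pms2* lie between 85.5% and 93.9%.

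The first comparison asked what DM changed in oocytes from primordial follicles, and it is the one that chose the family. Here *Msh6* was higher and *Mlh3* lower in every DM library than in every control library, and the groups of *Pms2* overlapped. *Mlh3* passed the filter on low counts through the control libraries alone, so its lack of overlap and its direction followed from that. Of 6699 genes tested by edgeR's quasi-likelihood test, 1 (0.0149%) had an adjusted p under 0.05, which was *Pms2*, the value that chose the family and so no result about it, and 874 (13.0%) had groups that did not overlap. The log2 fold change was 5.54 ± 3.62 (SE) for *Msh6*, -6.75 ± 3.14 (SE) for *Mlh3* and 10.52 ± 2.18 (SE) for *Pms2*, which stood beside a median of 0.13 over all genes tested. Without replicate 2 of primordial DM the value for *Pms2* was -0.998, and without replicate 3 of primordial control that for *Mlh3* was -2.72. Of the members, these 3 passed the filter on low counts. *Msh4* did not, and its mean was at least 174-fold lower in DM than in control, or 33.7-fold without replicate 2 of the controls, when each DM library is set to 3 counts. On the same basis *Msh5* was at least 26.1-fold lower, a bound that rested on the single control library with counts. The share of all genes with such bounds was not determined.

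In oocytes from primary follicles, DM was compared with control in libraries that played no part in the choice of the family. No member passed the test, and *Msh6* was the member whose groups did not overlap. *Msh6* passed the filter on low counts through its control libraries alone. Its lack of overlap and its direction therefore followed from the way it passed and are no separate finding. Of 4181 genes tested by edgeR, 0 (0%) had an adjusted p under 0.05, 508 (12.2%) had an unadjusted p under 0.05 and 545 (13.0%) had groups that did not overlap. Of the 3 members that passed the filter on low counts, *Msh6* alone had an unadjusted p under 0.05. *Msh6* was lower in DM by a log2 fold change of -6.39 ± 3.20 (SE, adjusted p = 0.396 in edgeR), in each of 3 DM libraries. With DESeq2 the value was -5.97 (adjusted p = 0.0135), among 695 of 2114 genes (32.9%) called by that tool, and its adjusted p lay between 0.0135 and 0.999 across the alternatives. *Pms2* had a log2 fold change of 3.03 ± 3.08 (SE, adjusted p = 0.599 in edgeR), which turned to -2.08 after subtraction of the *Gm42421* counts and to -3.02 without replicate 1 of primary DM. *Msh3* had 2.84 ± 2.84 (SE, adjusted p = 0.591 in edgeR), or -5.00 without that same library. *Mlh3* did not pass the filter. Its mean in DM was at least 526-fold lower than in control with each DM library set to 3 counts. This rested on replicate 3 of primary control, without which neither group exceeded 3 counts. The share of all genes with such a bound was not determined.

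*Msh6* thus lay apart from its controls in opposite directions in the 2 stages, higher in primordial and lower in primary follicles. Of 3838 genes tested in both stages, 9 (0.234%) had groups that did not overlap in opposite directions. The difference between the stages was not tested, and *Msh6* was singled out after its values had been seen. In primary follicles its separation also followed from passing the filter through the control libraries alone.

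The stage comparison in control libraries asked how oocytes of primary follicles differ from those of primordial follicles. The groups of all 5 members that passed the filter overlapped, no member passed the test, and none of the 4 members tested had an unadjusted p under 0.05. Of 6726 genes tested, 0 (0%) had an adjusted p under 0.05 in edgeR, 433 (6.44%) had an unadjusted p under 0.05, and 652 (9.69%) had groups that did not overlap. *Msh6* was at a log2 fold change of 3.18 ± 3.10 (SE, adjusted p = 0.885) and *Mlh3* at 5.17 ± 3.06 (SE, adjusted p = 0.767), the latter falling to -6.76 without replicate 3 of primary control. *Msh4* was at -6.17 ± 3.62 (SE, adjusted p = 0.766) and *Msh3* at -0.10 ± 2.71 (SE, adjusted p = 0.995). DESeq2 gave *Msh6* a value of 6.07 (adjusted p = 0.0296), among 287 of 4647 genes (6.18%) that it called, and the adjusted p for *Msh6* lay between 0.0296 and 1.00 across the alternatives. *Pms2*, given without a test because this comparison shares the controls that chose it, was at 3.66 ± 3.20 (SE). With each primary library set to 3 counts, *Msh5* was at least 20.1-fold lower there than in primordial control. This again rested on 1 primordial library, and the share of all genes with such a bound was not determined.

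Under DM, 2 members passed the filter for the same comparison, and *Msh6* was lower in every primary than in every primordial library. *Msh6* passed the filter through the primordial libraries alone, so this separation and its direction followed from that. Its log2 fold change was -8.41 ± 3.67 (SE, adjusted p = 0.286 in edgeR), and it kept this direction with each library left out, from -10.55 to -7.74. With groups that did not overlap, leaving out a library could hardly turn the direction, so this adds no support. Of 4331 genes tested, 0 (0%) had an adjusted p under 0.05, 746 (17.2%) had an unadjusted p under 0.05 and 800 (18.5%) had groups that did not overlap. *Msh6* was among both the 746 and the 800 genes. DESeq2 gave *Msh6* -6.56 (adjusted p = 0.00359), among 933 of 2495 genes (37.4%), and its adjusted p lay between 0.00359 and 0.977 across the alternatives. *Pms2* was at -3.53 ± 3.14 (SE), again without a test, at 7.69 without replicate 2 of primordial DM and at -9.88 after subtraction of the *Gm42421* counts. The 4 comparisons share libraries in pairs, so that their values for *Msh6* are not independent of each other.

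**Figure D4:**
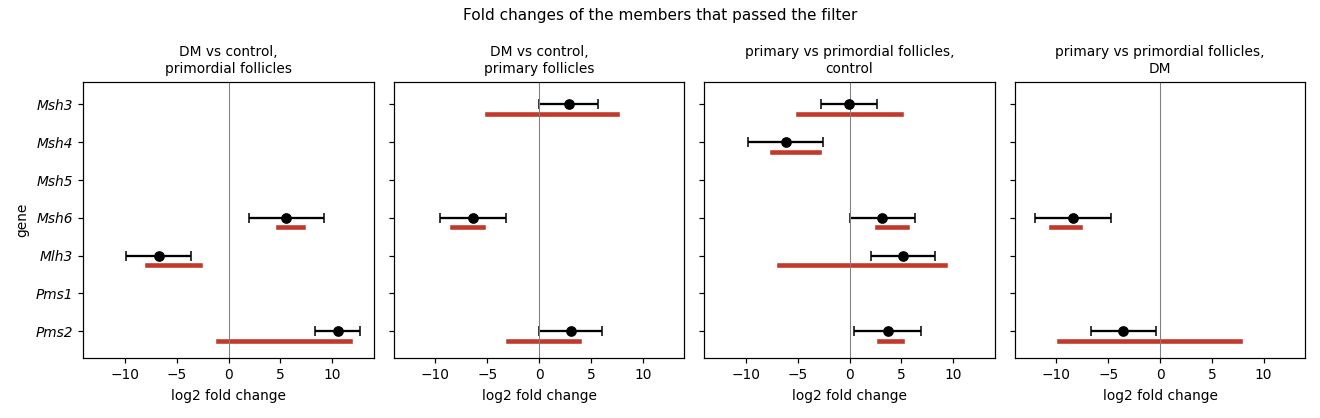
Log2 fold changes of the members that passed the filter in each of the 4 comparisons (x axis), with black points and bars for the estimate and its SE and red bars for the range when each library is left out in turn. The red bars of *Msh6* stay on 1 side of 0 in every panel, and those of *Pms2* cross 0 in all panels but the stage comparison in control libraries. For *Msh6* this was nearly set by its lack of overlap in all panels but that same comparison.

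The partners of the family in repair were described from a list of 19 replication-linked genes, such as the clamp loader, the clamp and the strand-binding and ligation factors. In DM against control, 9 primordial estimates could be made, with 4 higher and 5 lower, and 5 primary ones, with 3 and 2. In primary against primordial follicles, 11 passed in control, with 2 and 9, and 5 under DM, with 3 and 2. None passed edgeR's test in any of the 4 comparisons, and 1, 0, 0 and 0 had an unadjusted p under 0.05, while DESeq2 called 1, 0, 0 and 1. The median log2 fold changes of the list were -0.43, 1.07, -0.71 and 0.78, beside 0.13, 0.31, -0.31 and 0.35 over all genes tested. *Setd2*, the histone methyltransferase that writes the mark read by MSH6, was the most abundant of them and had 16435, 25352 and 4709 counts in primordial control and 14126, 208 and 52737 in primordial DM. Primary controls held 21823, 3258 and 44 counts of *Setd2*, against 29, 67 and 69874 with DM. Its groups overlapped at both stages. *Hmgb1*, a chromatin protein, and *Rfc1*, the large subunit of the clamp loader, came next by mean level. *Hmgb1* ranged from 1 to 11001 counts and *Rfc1* from 1 to 9208.

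For the genes whose level over the 12 libraries was most like that of a member, Pearson's r of log2(CPM + 0.5) was computed over 8287 other genes. *Zfp276* (r = 0.996), *Dcaf4* and *Cdkn2aip* (both 0.994) were closest to *Msh4*, and *Kcnip3* (0.972), *Krit1* (0.957) and *Gm6501* (0.952) to *Msh3*. *Rpl31-ps9* (0.960), a pseudogene whose reads may belong to its near-identical copies, *Kctd20* (0.927) and *Mkrn2* (0.924) were closest to *Mlh3*, and *Zfp943* (0.923), *Amh* (0.911) and *Aggf1* (0.889) to *Pms2*. For *Msh6* the closest were *Cgrrf1* (0.878), *Atp10d* (0.875) and *Maf* (0.873). Each of these values is set largely by the few libraries in which both genes were counted. Among the members themselves r was 0.781 for *Msh3* and *Pms2* and between -0.330 and 0.0420 for all other pairs. All values for *Pms2*, those of its closest genes included, use its deposited counts. Most of these were matched by *Gm42421* in replicate 1 of primordial control, primary control and primary DM, libraries that also held *Msh3*. These counts cannot be assigned to *Pms2*, so its likeness to *Msh3* or to other genes cannot be read as its own.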

How the data were processed

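The deposited values are raw read counts per gene in 12 libraries. The authors trimmed the reads, checked them with FastQC, mapped them to mm10 (the methods name TopHat2, the submitters' processing notes name STAR), used featureCounts to count them per gene, and left the deposited counts unnormalised. Library preparation is described both with TruSeq RNA Access and with Smart-seq II, after amplification without molecular identifiers. No library pair of a group agreed within sampling noise (smallest chi-square per degree of freedom 1588). As nothing ties libraries to animals, p-values measure only the spread between these libraries.

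Counts were tested in R 4.3.3 with edgeR 4.0.16 (filterByExpr, TMM, glmQLFit, glmQLFTest, prior count 0.125) on the 6 libraries of each comparison, with Benjamini-Hochberg adjustment over all genes tested and a threshold of 0.05. The SE is the log2 fold change divided by the square root of F. The code was tested on simulated data. CPM are counts scaled to a library's total. Alternatives were DESeq2 1.42.0, other scalings and filters, a replicate block, 1 fit of all libraries and each library left out, and, added after the values had been seen, library size alone and *Pms2* less *Gm42421*. Gene positions, exons and exon sequence are from GENCODE M21 (GRCm38, the same build as mm10), and symbols were found for 55141 of 55401 identifiers. The named genes are all members, genes overlapping a member's exons or starting within 1000 bases on the opposite strand, the 3 most abundant genes of each list and the 3 genes most like each member. A gene that falls under this rule is not reported here. Marker genes at 0 in all libraries were named after their values had been seen. Members and lists were chosen with earlier results of these data known. Samples with the same replicate number did not deviate together (correlations from -0.0489 to 0.0491), so numbers were not taken as pairs.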

Additional observations from a re-analysis of the deposited data

Results flagged for a closer look

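*Msh6* drew attention because its DM and control libraries did not overlap at either stage, with opposite directions. Groups that did not overlap were found for 13.0% of the genes tested at each stage. Its log2 fold change for DM against control was 5.54 in primordial follicles, where all 3 DM libraries were above all 3 controls, and -6.39 in primary follicles, where all 3 were below. This difference between the stages was not tested. Of 3838 genes tested in both stages, 9 (0.234%) had groups that did not overlap in opposite directions. In primary follicles *Msh6* passed the filter on low counts through its control libraries alone. Its separation and direction at that stage followed from this and are no separate finding. The direction was the same with each library left out in turn, with estimates between 4.77 and 7.19 at the primordial stage and between -8.40 and -5.38 at the primary stage. Since *Msh6* was picked for groups that do not overlap, leaving out a library could hardly turn its direction. This stability therefore adds no support.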

How the results depend on the processing

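For DM in primordial follicles the number of genes called was 1, and it was 656 with DESeq2, 491 at an unadjusted p under 0.05 and 0 with DESeq2 size factors in edgeR, the replicate block, no filter on low counts, a filter of at least 10 counts in every library, all 12 libraries in 1 fit or library size alone. Leaving out each library gave 0 to 3 genes. For DM in primary follicles 0 genes became 695 with DESeq2 and 508 unadjusted. For the stages in control, 0 became 287 with DESeq2, 4 with at least 10 counts in every library, 1 with library size alone and 433 unadjusted. For the stages under DM, 0 became 933 with DESeq2, 746 unadjusted and 0 to 4 with each library left out (2, 4 and 2 without primary DM replicates 1, 2 and 3). The cause of these differences was not tested. DESeq2 gave no p to the members that passed the filter other than *Msh6* and, for the stages in control, *Pms2*. The scaling moved the median log2 fold change of all genes, between DESeq2 size factors and library size alone, from 0.58 to -0.43, 2.12 to -0.96, -0.03 to -0.50 and 1.59 to -0.96 in the order above, and *Msh6* kept its direction under each.

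Among member values, the replicate block turned *Pms2* to -0.44 for DM in primary follicles and 0.75 for the stages under DM, and *Mlh3* to -1.41 for the stages in control. It moved *Pms2* for DM in primordial follicles from 10.52 to 1.13 and left 9 member values alike, and the numbers only name libraries, since 2 of 6 or fewer correlated best with their own number. *Msh3* for the stages in control became 0.86 with DESeq2 size factors and 0.11 with all libraries in 1 fit. Subtracting *Gm42421* turned *Pms2* to -2.08 for DM in primary follicles and moved it to -9.88 for the stages under DM. Leaving out each library, *Pms2* ranged from -0.998 to 11.68 for DM in primordial follicles, -3.02 to 3.81 for DM in primary follicles and -9.79 to 7.69 for the stages under DM, *Msh3* from -5.00 to 7.48 for DM in primary follicles and -4.99 to 4.92 for the stages in control, and *Mlh3* from -6.76 to 9.19 for the latter. The median share in the highest library over the 5 members that met its filter, *Pms2* among them, was 85.5%, 89.7% with TMM library sizes and 77.0% to 88.1% with each library left out. The members with few counts, *Msh5* and *Pms1*, were at 3 counts or fewer in 11 and 9 of the 12 libraries. Whether depth played a part was not tested.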

Other observations

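The meiotic crossover list, partners of *Msh4*, *Msh5* and *Mlh3* in recombination, gave values of its own. Of its 18 genes 16 were matched, and their summed level was 11.3 to 25.9 CPM in primordial control and 120 to 391 CPM in primordial DM. In primary follicles it was 7.46 to 294 CPM in control and 2.35 to 6.98 CPM in DM. The ranges of these sums did not overlap at either stage, but those of primordial DM were set mostly by *Sycp1* in 1 library and by *Cdk2* in the other two, and 0 of the list's genes that passed the filter had groups that did not overlap at either stage. *Cdk2*, a kinase found at crossover sites, was the most abundant of the list, with 30, 1 and 5 counts in primordial control, 2, 4437 and 7680 in primordial DM, 2, 856 and 1 in primary control and 1, 3 and 1 in primary DM. *Sycp1*, of the synaptonemal complex, had 13, 3 and 1, then 4387, 1 and 1, then 6010, 197 and 2, and then 1 in each library in the same order, and *Hsf2bp*, a recombination factor, reached 3860 counts in 1 primary control library and at most 16 in the others. Of the list, 3, 1, 6 and 1 genes passed the filter in the comparisons in the order of the text, with 1, 1, 5 and 1 higher estimates. None passed edgeR's test, 1, 0, 1 and 0 had an unadjusted p under 0.05, and DESeq2 called 1, 0, 1 and 0. The list's median log2 fold changes were -0.79, 1.22, 1.92 and 0.91, the first of them opposite in sign to the difference of the sums in primordial follicles and the second opposite to that in primary follicles.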
